A study of Mus musculus with 10 samples.

Results

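The genes described here are 9 linked to the making of selenocysteine and its placing into proteins, including paralogs and a recycling enzyme. They were measured in bEnd.3, a line of mouse brain endothelial cells, after treatment with StcE or saline. *Sephs2* and *Sephs1* stand for selenophosphate synthesis and its paralog, and *Pstk* and *Sepsecs* for charging of the selenocysteine tRNA. The others are *Trnau1ap* (a partner of that tRNA), *Secisbp2* and *Eefsec* (recoding of the UGA codon), *Secisbp2l* (the paralog of *Secisbp2*) and *Scly* (release of selenium from selenocysteine). All 9 were found by gene name among the 27024 named genes of the expression table. They were chosen by function, after the StcE-against-saline differences of *Sephs2* and of the selenoprotein genes in these same samples had been seen. Their own differences between the treatments are therefore a description, given without a test. StcE is a bacterial protease that cuts mucin-domain glycoproteins at the cell surface. The study used it to ask how loss of mucins changes brain endothelial cells. Wild-type bEnd.3 cells, an immortalized line, were cultured in medium with fetal bovine serum. For 16 h they received 5 nM StcE (5 samples, numbered 1, 2, 3, 5 and 6) or saline (5 samples, numbered 1 to 5). Saline was the only control, and all samples came from 1 line.

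Selenocysteine has no codon of its own. It is built on a dedicated tRNA: serine is loaded first, PSTK phosphorylates it, and SEPSECS exchanges the phosphate for selenium donated by selenophosphate. SEPHS2 makes the selenophosphate and is itself a selenoprotein, whereas SEPHS1 is a related protein that lacks selenocysteine. At the ribosome an in-frame UGA is read as selenocysteine when a hairpin in the 3′ end of the mRNA, the SECIS element, is bound by SECISBP2, and the elongation factor EEFSEC brings the charged tRNA. SCLY returns selenium from degraded selenoproteins to the pool.

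Poly(A) RNA was sequenced and each gene's level is given in FPKM. This scales the fragments of a gene by the length of all its annotated exons and by the size of the library. Levels of different genes are therefore per base of annotated exon, which can be longer than the transcript that the cells make. The libraries held 23411381 to 30981234 assigned fragments in saline and 23382891 to 35413569 after StcE, as recovered from the FPKM values, and the 9 genes were covered by 315 to 8047 fragments per sample. All 8 endothelial markers checked were present at a mean of at least 1 FPKM, with *Cdh5* (VE-cadherin) the highest at 485.9 FPKM. Their summed level was 1574 to 1703 FPKM in saline and 1497 to 1579 FPKM after StcE. Pericyte and smooth muscle markers summed to 2.09 to 5.11 and 2.67 to 4.55 FPKM, fibroblast markers to 1.07 to 1.33 and 1.09 to 1.43 FPKM, and the astrocyte, neuron, microglia, oligodendrocyte and epithelial lists to at most 0.315 FPKM in any sample. In bulk RNA, fewer cells of a type and less RNA per cell cannot be told apart. The sources do not say whether the samples of a group were separate cultures, so errors and p-values measure the spread between these samples, which may be technical.

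As the background, 11062 genes with a mean of at least 1 FPKM were compared with limma on log2(FPKM + 1), and a gene is called when its Benjamini-Hochberg adjusted p is under 0.05. This called 11.9% of the tested genes, of which 611 genes were higher after StcE (5.52% of those tested) and 709 were lower (6.41%). The total of 1320 fell to 838 without saline replicate 1 and to 793 without StcE replicate 3. In 10.7% of the tested genes the 5 StcE samples lay all above or all below the 5 saline samples. All 9 genes passed the expression minimum, and 1 of the 9 was called and had groups that did not overlap. Because the choice of genes drew on this contrast, nothing is read from that share.

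*Sephs2*, the selenophosphate synthetase, was higher in all 5 StcE samples than in any saline sample. Its level in saline was 19.7, 19.5, 19.1, 20.1 and 20.6 FPKM in replicates 1 to 5. After StcE it was 34.1, 32.7, 31.5, 32.7 and 31.3 FPKM in replicates 1, 2, 3, 5 and 6. The samples of each group lay close together, and the lowest StcE sample stood well above the highest saline sample. The means were 19.8 ± 0.578 and 32.5 ± 1.11 FPKM (SD, n = 5 each), a ratio of 1.64, and the difference on the log2(FPKM + 1) scale was 0.68 (SE 0.029, 95% interval 0.62 to 0.75). The pseudocount lowers this value slightly, since the log2 ratio of the means was 0.71. These levels rest on 1006 to 1302 fragments per saline sample and 1719 to 2491 per StcE sample. Among the 11062 tested genes, the difference ranked 35th from the highest, and the level moved from percentile 74.5 in saline to percentile 84.2 after StcE.

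The *Sephs2* mRNA itself carries an in-frame UGA codon for selenocysteine. In the GENCODE vM21 annotation of GRCm38, *Sephs2* lies on the minus strand of chromosome 7 (127271879 to 127274055) in 1 exon of 2177 bases, and its selenocysteine is codon 63 of 452. It was the only 1 of the 9 genes with an annotated selenocysteine codon. *Sephs1*, on the plus strand of chromosome 2, has a threonine codon at the aligned place, codon 29 of 392. Whether the selenocysteine codon bears on the difference between treatments was not tested. The 93 bases of coding exon around each codon are shown because the paralogs differ in the encoded amino acid at this site. They are chr7:127273686-127273778 (minus strand) and chr2:4884452-4884544 (plus strand), with the TGA selenocysteine codon and the aligned threonine codon in capitals.
Sephs2: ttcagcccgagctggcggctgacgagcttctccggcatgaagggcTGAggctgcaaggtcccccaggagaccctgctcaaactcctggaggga
Sephs1: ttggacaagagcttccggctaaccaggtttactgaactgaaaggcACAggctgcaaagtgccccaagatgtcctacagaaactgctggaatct
The windows were 64.5% identical, and the coding sequences were 68.5% identical over 1173 aligned bases. No stretch of at least 150 bases with at least 95% identity was shared between the paralogs.

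**Figure D1:**
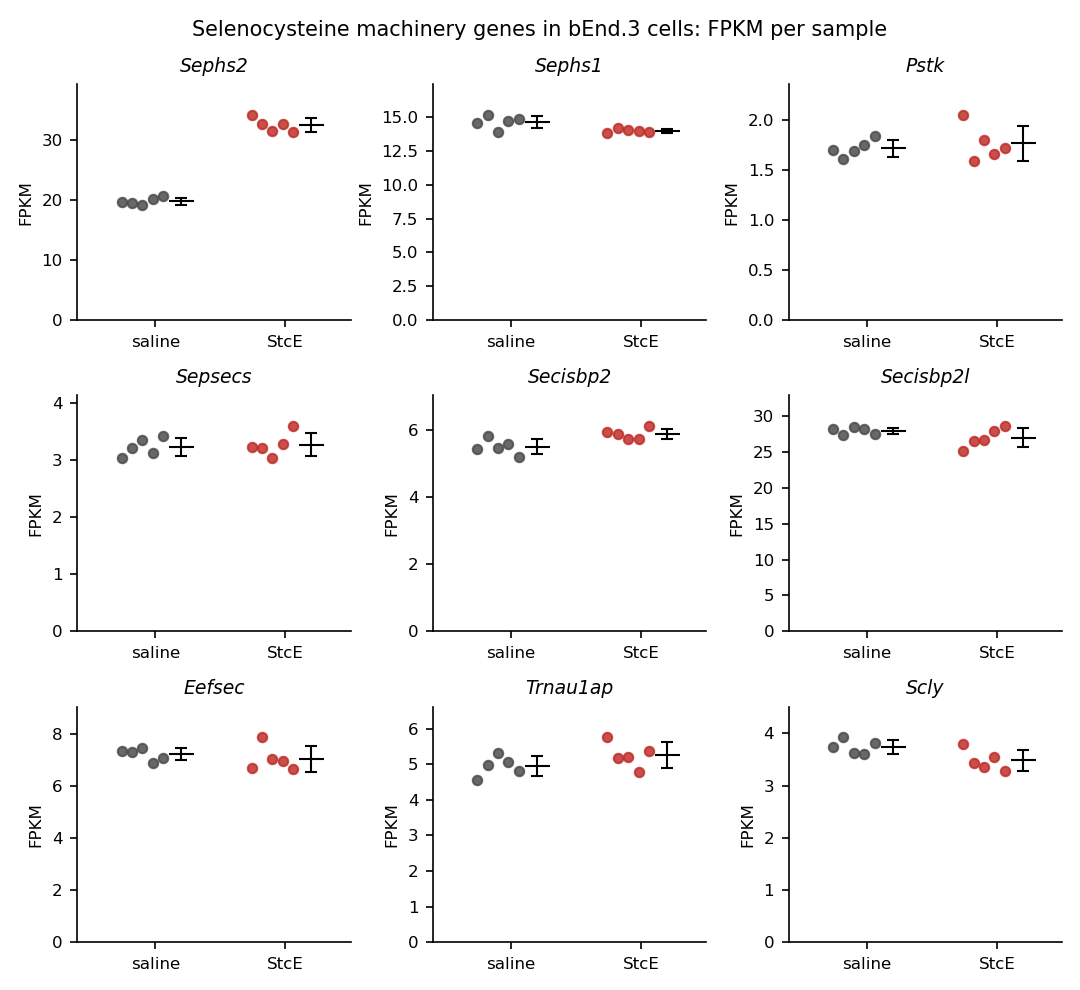
FPKM of the 9 genes in each sample (points, 5 saline and 5 StcE samples), with the mean and SD of each group beside them and every vertical axis starting at 0. *Sephs2* separates, with saline samples at 19.1 to 20.6 and StcE samples at 31.3 to 34.1 FPKM, while the groups overlap in the other 8 genes.

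*Sephs1* did not share the difference of *Sephs2*. It was at 14.5, 15.1, 13.9, 14.7 and 14.8 FPKM in saline and at 13.8, 14.2, 14.0, 14.0 and 13.9 FPKM after StcE. All 5 StcE samples were under the saline median, but saline replicate 3 lay within their range, so the groups overlapped. The means were 14.6 ± 0.456 and 14.0 ± 0.143 FPKM, and the difference was -0.059 (SE 0.025, unadjusted 95% interval -0.11 to -0.0043). The ratio of *Sephs2* to *Sephs1* within a sample was therefore 1.36 ± 0.0403 in saline (1.29 to 1.39) and 2.32 ± 0.0871 after StcE (2.25 to 2.46).

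The genes that act on the tRNA showed differences no larger than the spread between samples. *Pstk*, the kinase of the seryl-tRNA, had the lowest FPKM of the 9. It was at 1.70, 1.61, 1.69, 1.75 and 1.84 FPKM in saline and 2.05, 1.59, 1.80, 1.66 and 1.72 FPKM after StcE. StcE replicate 1 was the highest of the 10 samples and StcE replicate 2 the lowest, so the StcE samples enclosed all saline samples. The difference was 0.023 (SE 0.050, 95% interval -0.087 to 0.13), and it became -0.013 without StcE replicate 1. *Sepsecs*, which completes selenocysteine on the tRNA, was at 3.04, 3.22, 3.35, 3.13 and 3.44 FPKM in saline and 3.24, 3.21, 3.04, 3.29 and 3.60 FPKM after StcE. Both groups covered nearly the same range, and the difference was 0.013 (SE 0.042, 95% interval -0.079 to 0.11). *Trnau1ap*, whose product associates with the selenocysteine tRNA, was at 4.56, 4.99, 5.32, 5.07 and 4.81 FPKM in saline and 5.76, 5.18, 5.19, 4.78 and 5.38 FPKM after StcE. Of the StcE samples, 4 lay above the saline median and replicate 5 below it, with a difference of 0.072 (SE 0.046, 95% interval -0.028 to 0.17).

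The recoding factors and *Secisbp2l* were also within a narrow range. *Secisbp2*, which encodes the SECIS-binding protein, was at 5.45, 5.82, 5.47, 5.60 and 5.19 FPKM in saline and 5.95, 5.89, 5.74, 5.73 and 6.12 FPKM after StcE. All 5 StcE samples were above the saline median and 3 were above every saline sample. The means were 5.51 ± 0.229 and 5.89 ± 0.162 FPKM, 6.88% apart, with a difference of 0.082 (SE 0.032, unadjusted 95% interval 0.012 to 0.15). This was the highest difference of the 8 genes other than *Sephs2*, and it was not called. Its paralog *Secisbp2l* was at 28.1, 27.3, 28.4, 28.1 and 27.4 FPKM in saline and 25.1, 26.5, 26.7, 27.9 and 28.5 FPKM after StcE. The StcE samples were the more scattered, with 3 below every saline sample and replicate 6 above all of them, and the difference was -0.048 (SE 0.032, 95% interval -0.12 to 0.022). *Secisbp2l* stood 5.07 ± 0.229 times above *Secisbp2* in saline and 4.58 ± 0.243 times after StcE. *Eefsec*, the selenocysteine elongation factor, was at 7.37, 7.32, 7.48, 6.91 and 7.10 FPKM in saline and 6.72, 7.89, 7.06, 6.99 and 6.67 FPKM after StcE. StcE replicate 2 was the highest of all 10 samples and the other 4 lay under the saline median, with a difference of -0.031 (SE 0.041, 95% interval -0.12 to 0.059).

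*Scly*, the lyase that recycles selenium, had the lowest difference of the 9. It was at 3.74, 3.93, 3.63, 3.61 and 3.82 FPKM in saline and 3.80, 3.44, 3.35, 3.55 and 3.28 FPKM after StcE. In StcE, 4 samples lay below every saline sample, while replicate 1 was among the higher saline values. The means were 3.75 ± 0.131 and 3.48 ± 0.205 FPKM, a change of -7.0%, and the difference was -0.083 (SE 0.038, 95% interval -0.17 to 0.0015).

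**Figure D2:**
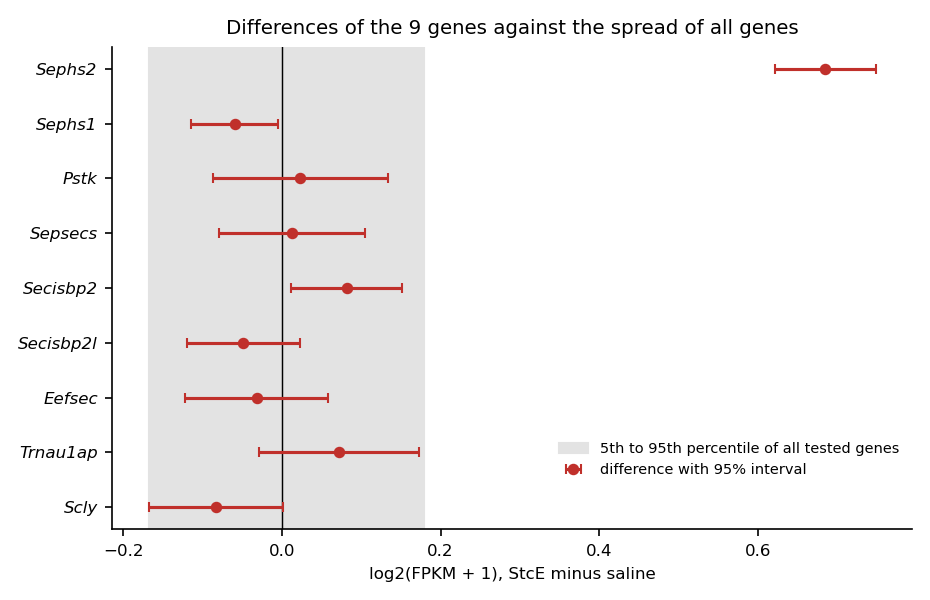
Difference of each gene between StcE and saline on the log2(FPKM + 1) scale (points) with its 95% interval (bars), over the band from the 5th to the 95th percentile of all 11062 tested genes, -0.168 to 0.179. *Sephs2* at 0.68 lies outside the band, and the points of the other 8 genes lie inside it, between -0.083 and 0.082.

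Apart from *Sephs2*, the 8 genes gave 4 higher and 4 lower means after StcE, and their median difference was -0.0092 beside -0.00066 over all tested genes. Their median absolute difference was 0.054, against 0.057 for all tested genes. The unadjusted intervals of the 8 genes together ran from -0.17 to 0.17 on the log2(FPKM + 1) scale. The pseudocount shrinks differences of genes at low levels. For *Scly* the log2 ratio of the means was -0.105, beside a difference of -0.083. The intervals therefore do not bound the log2 ratios, and they rest on a spread between samples that may be technical. Summed over the 8 genes, the level was 68.9 ± 0.398 FPKM in saline and 67.7 ± 1.06 FPKM after StcE, with overlapping ranges. With *Sephs2* added, the sums were 88.7 ± 0.408 and 100.1 ± 0.978 FPKM. *Sephs2* made up 22.3% ± 0.581 of that sum in saline and 32.4% ± 0.991 after StcE.

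The order of the levels was nearly fixed. In all 5 saline samples it ran, from the highest FPKM, *Secisbp2l*, *Sephs2*, *Sephs1*, *Eefsec*, *Secisbp2*, *Trnau1ap*, *Scly*, *Sepsecs* and *Pstk*. After StcE *Sephs2* took the first place in all 5 samples, at 1.21 ± 0.0965 times the level of *Secisbp2l* whereas in saline the mean of *Secisbp2l* was 1.41 times that of *Sephs2*. The other 8 genes kept their relative order, except that *Sepsecs* exceeded *Scly* in 1 of 5 StcE samples. Among neighbours, the ranges of *Secisbp2* and *Trnau1ap* overlapped in both groups and those of *Scly* and *Sepsecs* overlapped after StcE. *Secisbp2* was nevertheless above *Trnau1ap* within each of the 10 samples, and *Scly* was above *Sepsecs* in 4 of 5 StcE samples. The places of the genes depend on the length that divides the fragments. All annotated exons held 7914 bases for *Pstk* and 2710 for *Trnau1ap*, while an annotated transcript of each has 1135 and 1130. An order by transcript length was not computed.

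Counting of fragments set a part of this spread. The coefficient of variation (CV) between replicates exceeded the CV expected from the fragment numbers alone in 5 of 9 genes in saline and in 7 of 9 after StcE. For *Sephs2* the observed CV was 2.92% in saline, where counting gives 3.0%, and 3.43% after StcE, where it gives 2.23%. *Pstk* after StcE had the widest spread, 9.97% against 5.02% from counting. *Secisbp2l*, the most deeply covered gene, varied by 4.96% after StcE where counting gives 1.26%.

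**Figure D3:**
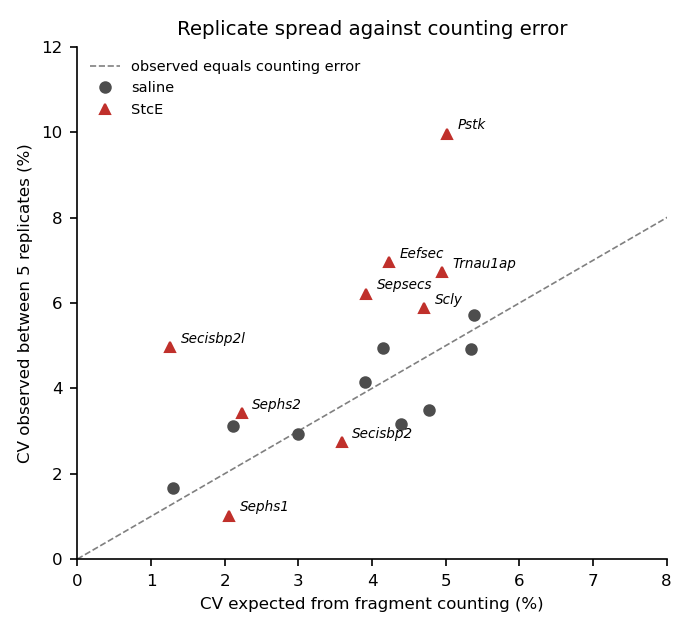
Observed CV between the 5 replicates of each group (vertical axis, %) against the CV expected from fragment counting (horizontal axis, %) for the 9 genes, with circles for saline, triangles for StcE and a dashed line where they are equal. Most StcE points lie above the line, with *Pstk* the highest at 9.97% and *Sephs1* below it at 1.02%.

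Parts of 4 genes overlap a gene on the opposite strand. The library kit marked strand, and the strand setting of the counting was not given in the sources used here. *Gm44729* covers 36.4% of the *Sephs2* exon length and was itself at 0.0257 ± 0.0158 and 0.0231 ± 0.0289 FPKM. *Ikzf5* covers 58.8% of *Pstk* and was at 0.432 ± 0.0671 and 0.445 ± 0.0798 FPKM. This is the largest such share among the 9 genes, so the level of *Pstk* is uncertain. *Sephs2* has the next largest share, so its level carries the same limit. The overlaps of *Gm44264* with *Eefsec* (11.0%) and of *Gm17090* with *Scly* (3.5%) are smaller.

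*Sephs2* is itself a selenoprotein gene, and it was the 1 such gene called higher. A list of 23 further mouse selenoprotein genes had 18 that could be tested, with 0 called higher and 7 called lower, beside 5.52% and 6.41% of all tested genes. Their median difference was -0.049, against -0.00066 over all tested genes. *Sephs2* had the highest difference of the 19 selenoprotein genes, and the next was *Txnrd3*, a thioredoxin reductase, at 0.088 (SE 0.060, not called). The lowest differences were those of *Selenoh* (-1.22, SE 0.037), *Selenow* (-1.10, SE 0.040) and *Gpx1*, the cytosolic glutathione peroxidase (-0.99, SE 0.023). *Selenop*, the selenium transport protein, was at 6.32 ± 0.409 FPKM in saline and 4.73 ± 0.180 FPKM after StcE (-0.35, SE 0.041). *Selenon*, a protein of the endoplasmic reticulum, was at 31.0 ± 0.590 and 25.5 ± 1.35 FPKM (-0.27, SE 0.034). Since the 9 genes were picked with these values in view, no p is given for them and the opposite directions are a description of the choice as well as of the data.

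**Figure D4:**
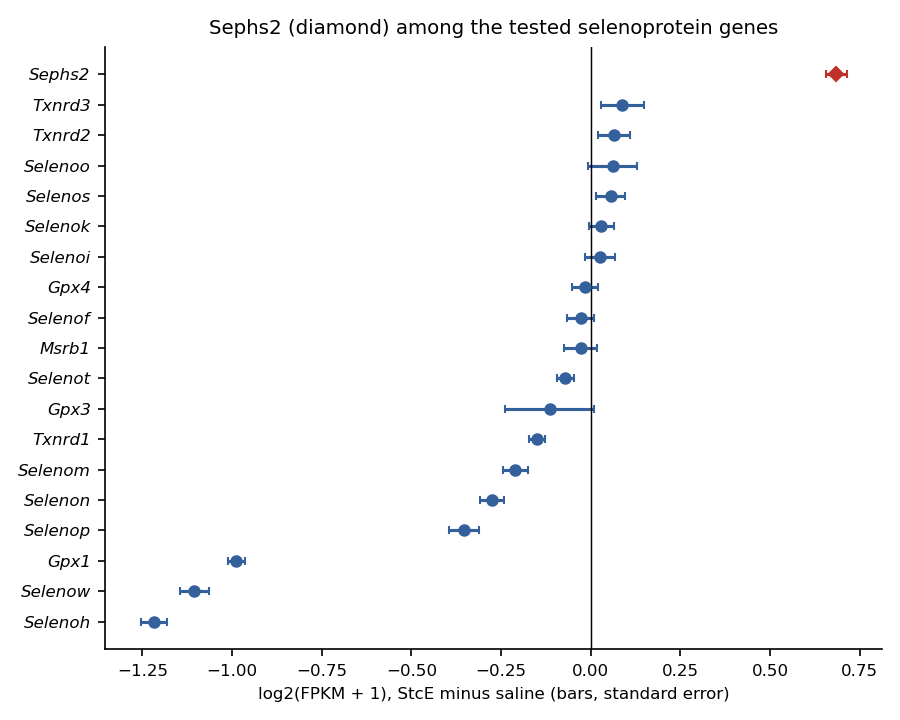
Difference between StcE and saline on the log2(FPKM + 1) scale (points) with its standard error (bars) for *Sephs2* (diamond) and the 18 tested selenoprotein genes (circles), sorted from the highest. *Sephs2* is at 0.68, the next gene at 0.088 and the lowest at -1.22.

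Of the 2 tested genes that supply selenium, *Lrp8* was called higher. Among all tested genes 5.52% were called higher, and in 10.7% the groups did not overlap. This list was chosen with earlier results of these data known, so its values, the p included, are a description. *Lrp8* encodes ApoER2, a receptor that takes up selenoprotein P. It rose from 7.71 ± 0.546 FPKM in saline (7.19 to 8.32) to 9.83 ± 0.504 FPKM after StcE (9.31 to 10.3), with no overlap, a difference of 0.32 (SE 0.046, limma adjusted p = 0.00158). *Prdx6*, a peroxiredoxin that also takes part in selenium use, was at 72.8 ± 2.67 and 69.7 ± 2.83 FPKM and was not called (-0.063). The other 6 of the 8 genes listed for selenium supply were under the expression minimum, among them the cystine transporter gene *Slc7a11* at 0.983 ± 0.0233 and 0.958 ± 0.0488 FPKM.

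In the remaining lists of the decoding pathway 1 gene was called, beside 11.9% of all tested genes, and nothing is read from counts in lists this short. These lists too were chosen with earlier results of these data known, so a p in them is a description. Of 7 genes for loading, modification and transcription of the selenocysteine tRNA (*Sars*, *Trit1*, *Alkbh8*, *Trmt112*, *Elp3*, *Ssb* and *Zfp143*), 0 were called by limma, 0 had an unadjusted p under 0.05 and 0 were called by voom on the recovered fragments. Their differences ran from -0.044 to 0.042, with a median of -0.0082. Of 12 genes that bind the SECIS element or degrade mRNAs with an early UGA, 1 was called, and the median difference was 0.021. This was *Rpl30*, a ribosomal protein known to bind SECIS elements, at 14.6 ± 1.93 FPKM in saline (12.4 to 17.5) and 10.9 ± 1.99 FPKM after StcE (9.15 to 13.7), a difference of -0.40 (SE 0.11, limma adjusted p = 0.0379). The groups overlapped, the call was lost in 12 of 20 alternatives, and 91.0% of the transcript is shared at 95% identity or more with 13 other annotated genes, so its level is uncertain. *Etf1* and *Gspt1*, the genes of release factors that act where UGA is a stop, had differences of 0.018 and 0.053. limma called 0 of these 2 and voom called 0, while *Gspt1* was the 1 gene with an unadjusted p under 0.05.

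Across the 10 samples, genes whose log2(FPKM + 1) followed that of *Sephs2* closely included *Msmo1* (Pearson r = 0.996, the highest of those reported here), *Idi1* (0.992) and *Insig1* (0.991). Their own differences were 1.49 for *Msmo1*, 1.41 for *Idi1* and 1.46 for *Insig1*. Because the 10 points share the treatment and the libraries, these coefficients mainly reflect the step between the groups and are given as a description without a p, and no gene group is read from them. After subtraction of each group's mean, the 5 closest genes were *Fhl3* (0.951), *Pctp* (0.937), *Lsmem2* (0.925), *Nudcd1* (0.923) and *Nhp2* (0.919). They are the highest of 11062 genes ranked over 10 samples. Coefficients this high can arise from such a selection alone, and nothing is read from them.

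**Figure D5:**
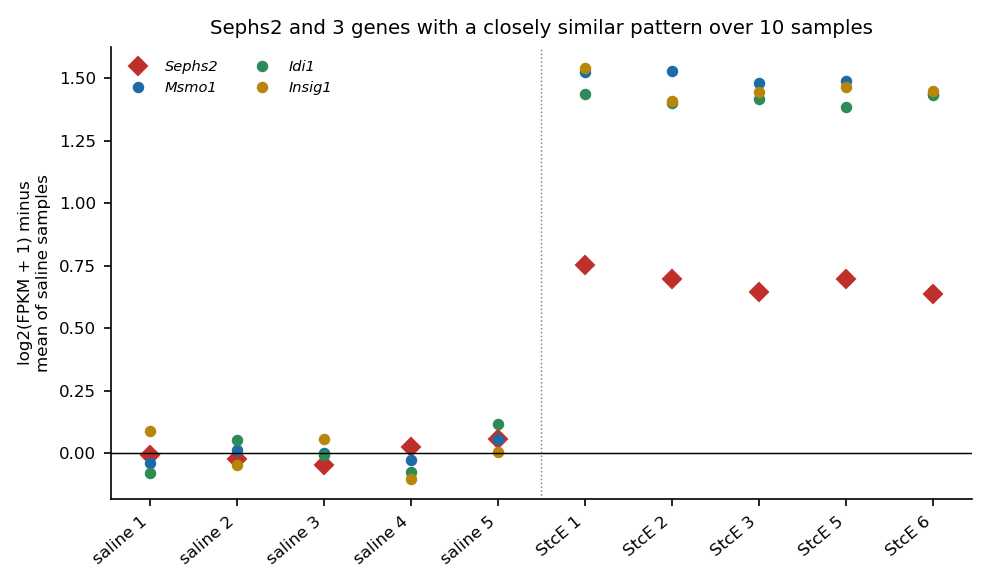
log2(FPKM + 1) of *Sephs2* (diamonds) and of *Msmo1*, *Idi1* and *Insig1* (circles) in each of the 10 samples, relative to the gene's mean over the saline samples. All 4 genes are near 0 in the 5 saline samples and higher in the 5 StcE samples, where *Sephs2* lies between 0.64 and 0.75.

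The promoter of *Sephs2* is shown because it is the start of the 1 gene of the 9 that differed. It is chr7:127274060-127274309 on the minus strand of GRCm38.p6, the 250 bases before the RefSeq start, with an E-box (CACGTG) in capitals.
Sephs2 promoter: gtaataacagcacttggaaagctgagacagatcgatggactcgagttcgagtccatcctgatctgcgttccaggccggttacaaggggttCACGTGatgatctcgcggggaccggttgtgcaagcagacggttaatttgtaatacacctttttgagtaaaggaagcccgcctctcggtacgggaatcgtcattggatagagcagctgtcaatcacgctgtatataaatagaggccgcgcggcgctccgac
It holds 20 CpG dinucleotides and 52.0% GC, where the median of 32851 mouse promoters of this length is 6 and 52.4%. RefSeq entries matched 8 of the 9 genes with 9 windows, which held 51.2% to 76.0% GC and 9 to 40 CpG. On both strands, 5 motifs were searched, the sterol response element TCACNCCAC, the antioxidant response element TGACNNNGC, the C/EBP-ATF element TGATGNAAT, the E-box CACGTG and the cAMP response element TGACGTCA. The E-box was found in 2 windows, those of *Sephs2* and *Secisbp2*, and in 6.02% of all promoters. The other 4 sets of letters were in none of the 9 windows and in 1.05%, 10.2%, 0.816% and 1.55% of all promoters in the order given. A match in a window is a description and not a binding site.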

How the data were processed

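bEnd.3 cells were profiled by poly(A) RNA-seq. Per the submitters' processing notes, reads were handled with HISAT2 (2.0.5), featureCounts (1.5.0-p3) and DESeq2 (1.32.0) on mm10. The authors deposited FPKM values per gene and sample. The annotation release and strand setting were not given in the sources used here.

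Samples were grouped by their labels. FPKM values were tested with limma (3.58.1, R 4.3.3; trend) on log2(FPKM + 1) in the 11062 genes whose mean reached 1 FPKM, StcE against saline with no covariates, and p-values were adjusted by Benjamini-Hochberg over all of them. Standard errors, intervals and differences come from that fit. A count test was not used as the main test because the deposited unit is FPKM. Whole fragments were recovered with exon lengths of GENCODE vM21: 97.8% of values under 500 fragments were whole within 0.05 fragments or 0.02%. On these fragments voom tested 10647 genes and called 1538 of them. The library size implied by the FPKM was not the recovered total, which differed from it by -0.616% to 2.07%. A floor of 3 fragments on a 1 kb gene equals 0.0857 to 0.131 FPKM, depending on the library. Floors and counting CVs cover counting error only. The fit was tested on simulated data.

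The members and the lists of related genes were chosen with earlier results of these data known. Named genes were the 9 members, up to 5 called genes per related list, *Lrp8*, and the 5 genes most correlated with the member of largest difference, of which some are not reported here. Promoters came from RefSeq. Coding sequences were aligned with Biopython (1.88) and transcripts compared with BLAST (2.17.0). Between any 2 samples of one group the recovered fragments differed beyond counting error (chi-square over degrees of freedom 3.25 to 9.7), so none was a copy of another. Separate libraries from one culture could differ in this way too, so these values do not show whether the samples were separate cultures. Same-numbered samples did not deviate together (correlations -0.0966 to 0.0538), so they were not treated as pairs. The closing section gives the effect of 20 alternatives in pseudocount, filter, scaling, variance model, replicate block, left-out samples and voom.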

Additional observations from a re-analysis of the deposited data

How the results depend on the processing

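The difference of *Sephs2* was 0.67 to 0.71 over 20 alternatives, and 1 of the 9 genes was called in each. These refit the samples whose values guided the choice of genes and are no independent support. The sign differed from the reported one in 1 alternative for *Pstk* and in 4 for *Sepsecs*, and in none for the other 7 genes. The count of called genes, 1320 in all (709 lower, 611 higher), was 801 (409 lower, 392 higher) with no filter on low values. In the 8 samples whose numbers occur in both groups, a replicate block gave 349 (162 lower, 187 higher), where *Sephs2* was again the 1 member called, and without the block in those 8 samples 885 (452 lower, 433 higher). The numbers mark no shared culture or day in the labels, and same-numbered samples did not deviate together. Leaving out 1 sample gave 793 to 1255 genes (409 to 667 lower, 384 to 588 higher). The 1 call among genes for SECIS binding and decay (*Rpl30*) became 0 with a minimum of 0.1 FPKM, no filter, robust variance, the replicate block and those 8 samples without it, and was 0 to 1 when a sample was left out. The fewer samples and the larger number of genes tested are part of these settings, and the cause was not tested further. Precision is limited by 5 samples per group and, for *Pstk* and *Trnau1ap*, by 315 to 495 fragments per sample.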
